A study of Mus musculus with 9 samples.

Results

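The genes described are 9 by which endothelial cells (ECs) set the balance between clot formation, its restraint and clot removal, namely Thbd, Procr, F3, F8, Tfpi, Vwf, Plat, Plau and Plaur. They were chosen by name for their known function, with earlier results of these data known. All 14 probe sets that the platform annotation gives to 1 of them alone were kept, out of 34945 probe sets and 18193 genes tested. All 9 genes were measured, and none was removed by a filter. Levels are RMA values on the log2 scale from Affymetrix Mouse Genome arrays of ECs sorted from mouse lungs.

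The metastatic anti-VEGF group held NSG mice with lung metastases of MDA-MB-231-LM2, a human breast cancer line that seeds the lung, which received B20.4.1.1, an antibody that blocks VEGFA, at 10 mg/kg, injected repeatedly until harvest. The metastatic IgG group carried the same metastases and received control IgG, and the healthy IgG group held age-matched NSG mice without tumor cells that received control IgG. Mice were 6 to 8 weeks old at injection of tumor cells into the tail vein, and lungs were taken on day 21. Each group had 3 arrays, which the labels call biological replicates, and this number limits the precision of every value. The model is a single human line in a host without lymphocytes that keeps its myeloid cells, and metastatic mice were picked for a like tumor load. The gate took CD31+ cells without CD45, CD11b, CD326, CD140a, CD140b or GFP, the label of the tumor cells.

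Clotting starts when tissue factor, the product of F3, meets factor VII outside the vessel or on activated cells, and factor VIII and von Willebrand factor amplify it. Resting endothelium opposes it with thrombomodulin and the endothelial protein C receptor, which together activate protein C, and with tissue factor pathway inhibitor. Plasminogen activators then dissolve the fibrin that forms. Lung endothelium is known for its high level of thrombomodulin.

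The arrays showed the defining markers of ECs. Pecam1, Cdh5, Tek, Kdr and Cldn5 had log2 levels of 12.9 to 13.5 in all 9 arrays, and correlations between arrays were 0.976 to 0.992, with no pair identical. Of 12 macrophage and monocyte markers, 9 were higher in metastatic IgG than in healthy arrays, with a mean log2 level of 9.33 to 9.81 under anti-VEGF, 9.36 to 9.59 in metastatic IgG and 8.12 to 8.56 in healthy arrays. C1qa and C1qb rose by 2.64 and 1.74 log2 units in metastatic IgG against healthy ECs. Among markers that the gate removes, Ptprc, the gene of CD45, had log2 levels of 8.25 to 9.51, and an array value holds no true zero. Pdgfrb, the gene of CD140b, rose by 1.18 log2 units, whereas Pdgfra and Epcam did not pass. Of 8 pericyte, 8 fibroblast and 10 epithelial markers, 2, 3 and 2 rose, among them Rgs5 by 1.06, Col1a1 by 1.48 and Sftpd by 1.18, and the fibroblast marker Inmt fell by 1.06. Of all genes, 5.55% were called higher and 3.46% lower in metastatic IgG against healthy ECs. Beta-actin probes at the 3' end exceeded those at the 5' end, a gap that widens as RNA degrades, by log2 values of 0.526 to 0.620 under anti-VEGF, 0.488 to 0.555 in metastatic IgG and 0.609 to 0.620 in healthy arrays. The part of these markers and of RNA integrity in the results below was not tested.

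Metastatic IgG ECs were first set against healthy IgG ECs, to see which members metastasis moves without treatment. Procr, the endothelial protein C receptor, was upregulated, and it was the only member of 9 to pass the test (11.1%, against 5.55% of all genes called higher). No member was called lower, against 3.46% of all genes. The arrays were fully separated in 3 higher members, Procr, Plat and Plau (33.3%, against 15.4% of all genes), and in 2 lower members, Thbd and Vwf (22.2%, against 13.6%). The median difference of the 9 members was 0.08 log2 units, against -0.0011 over all genes. In bulk samples of this kind, fewer cells of a type and less RNA per cell cannot be told apart.

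**Figure D1:**
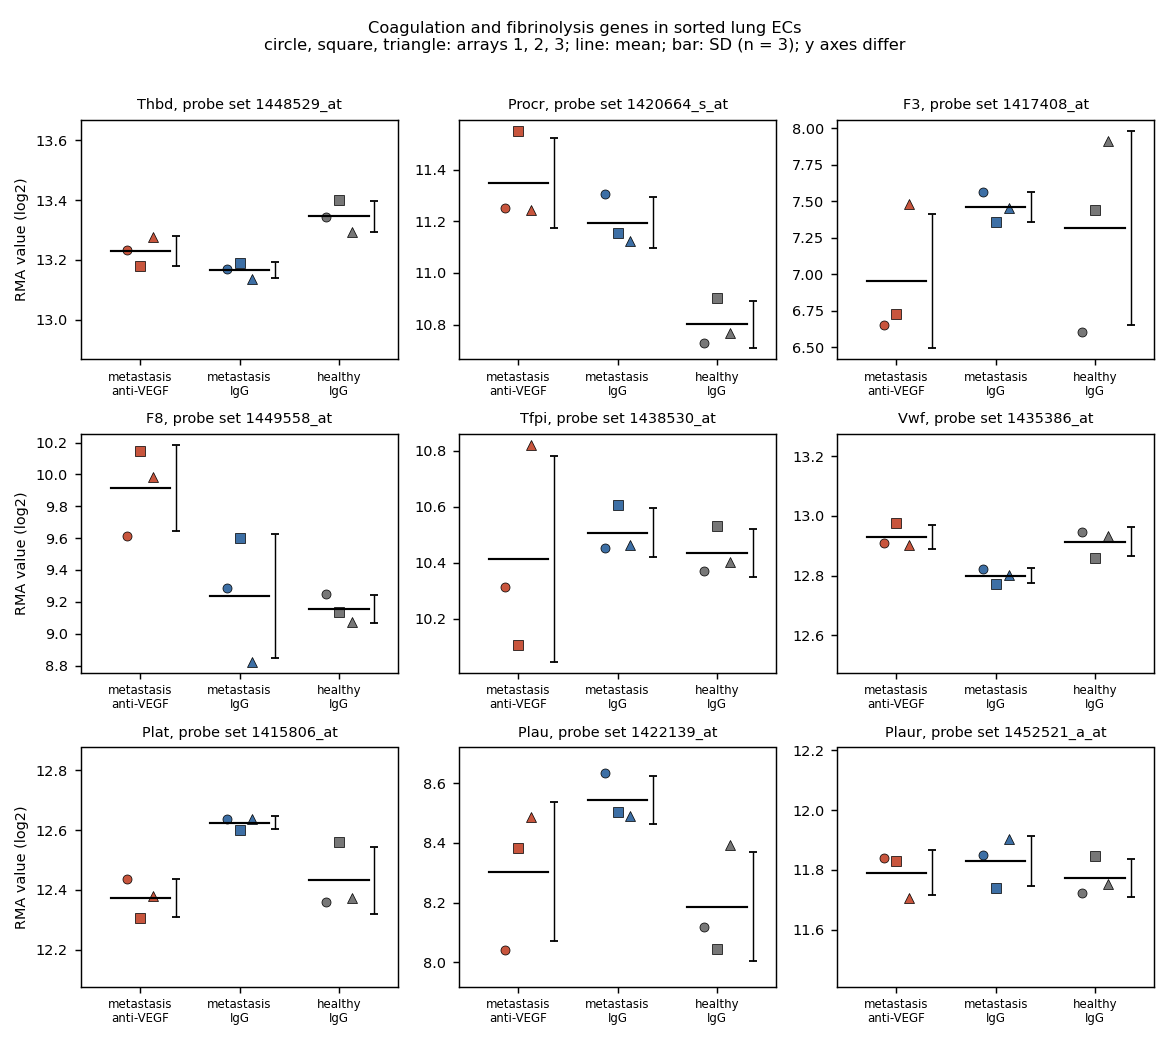
RMA values (log2, y axis, with its own range in each panel) of the 9 members in each array, with the groups metastatic anti-VEGF, metastatic IgG and healthy IgG from left to right. Points are arrays, lines are means and bars are SD (n = 3 per group). Procr lies above every healthy array in all 6 metastatic arrays, and F8 lies above every other array under anti-VEGF.

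Among the genes that restrain clotting, Procr presents protein C to the thrombin-thrombomodulin complex, which speeds its activation. Its log2 level was 11.25, 11.55 and 11.24 under anti-VEGF, 11.31, 11.15 and 11.12 in metastatic IgG, and 10.73, 10.90 and 10.77 in healthy arrays. Every metastatic array exceeded every healthy array, whereas the anti-VEGF and IgG arrays overlapped. The difference of metastatic IgG from healthy ECs was 0.39 ± 0.09 log2 units (SE, n = 3 per group), a fold of 1.31, with limma's adjusted p of 0.0302. That call rests on few arrays, since it was lost without metastatic IgG array 1 (adjusted p = 0.0982), metastatic IgG array 2 (0.0618), healthy array 1 (0.100) or healthy array 3 (0.102). The single Procr probe set carries a suffix for probes that transcripts of more than 1 gene may share.

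The RefSeq promoter entry of Procr is shown because it was the only member called in metastatic IgG against healthy ECs. It covers chr2:155750967-155751266 on the plus strand of GRCm38.p6, 250 bases before to 50 after the start used for that entry. The gene itself is listed from base 155751125, which lies upstream of that start and within the window. Positions below count from the start of the entry. Capitals mark matches to the motifs searched.
Procr promoter: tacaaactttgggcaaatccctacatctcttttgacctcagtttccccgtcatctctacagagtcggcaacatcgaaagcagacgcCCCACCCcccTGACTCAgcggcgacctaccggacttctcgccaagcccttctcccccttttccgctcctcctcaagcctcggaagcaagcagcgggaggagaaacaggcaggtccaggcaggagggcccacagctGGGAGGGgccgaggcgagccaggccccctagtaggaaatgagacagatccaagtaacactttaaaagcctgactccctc
With both strands searched, the letters TGANTCA (AP-1) matched at 154 bases before the start, and GGGNGGG (KLF and SP) matched at 164 and 29 bases before it, without overlap between the matches. Of 32851 promoters of this length, 7.81% held TGANTCA and 48.1% held GGGNGGG. No match was found to the NF-kB motif searched as GGANTTTCC, which 1.25% of promoters held, or to the interferon motif searched as GAAANNGAA, held by 8.56%. The same was true of the motif of the GATA factors written AGATAA, held by 11.2% of promoters, of the motif of the ETS family, written CCGGAA and held by 14.9%, and of the E-box letters CACGTG, held by 7.15%. These are letters in a window, and binding was not measured. The table has no promoter for Thbd, Vwf, Plat or Plau.

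Thbd encodes thrombomodulin, which turns thrombin from a clotting enzyme into an activator of protein C. Its log2 level was 13.23, 13.18 and 13.28 under anti-VEGF, 13.17, 13.19 and 13.14 in metastatic IgG, and 13.34, 13.40 and 13.29 in healthy arrays. All 6 metastatic arrays lay below the lowest healthy array, but only by a narrow margin for anti-VEGF array 3. The difference was -0.18 ± 0.07 log2 units in metastatic IgG against healthy ECs, which did not pass (adjusted p = 0.189), and it passed at 0.0166 with the trend and robust settings of eBayes together.

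Tfpi encodes tissue factor pathway inhibitor, which blocks the tissue factor and factor VII complex. Its 4 probe sets gave different answers. For probe set 1451790_a_at the log2 level was 10.02, 9.83 and 10.34 under anti-VEGF, 10.13, 10.20 and 10.04 in metastatic IgG, and 9.75, 9.48 and 9.70 in healthy arrays, so no metastatic array fell into the healthy range. It rose in metastatic IgG against healthy ECs by 0.48 ± 0.10 log2 units (adjusted p = 0.0251 over all probe sets). Probe set 1451791_at, at 0.37 ± 0.12, also showed no overlap but did not pass (adjusted p = 0.127). The other pair, 1438530_at with 0.07 ± 0.09 and 1452432_at with 0.05 ± 0.12, overlapped between groups. The first of these has the highest mean and stood for the gene in the gene fit, where Tfpi was not called (adjusted p = 0.680). Which transcripts each probe set detects is not given in the sources used here.

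**Figure D2:**
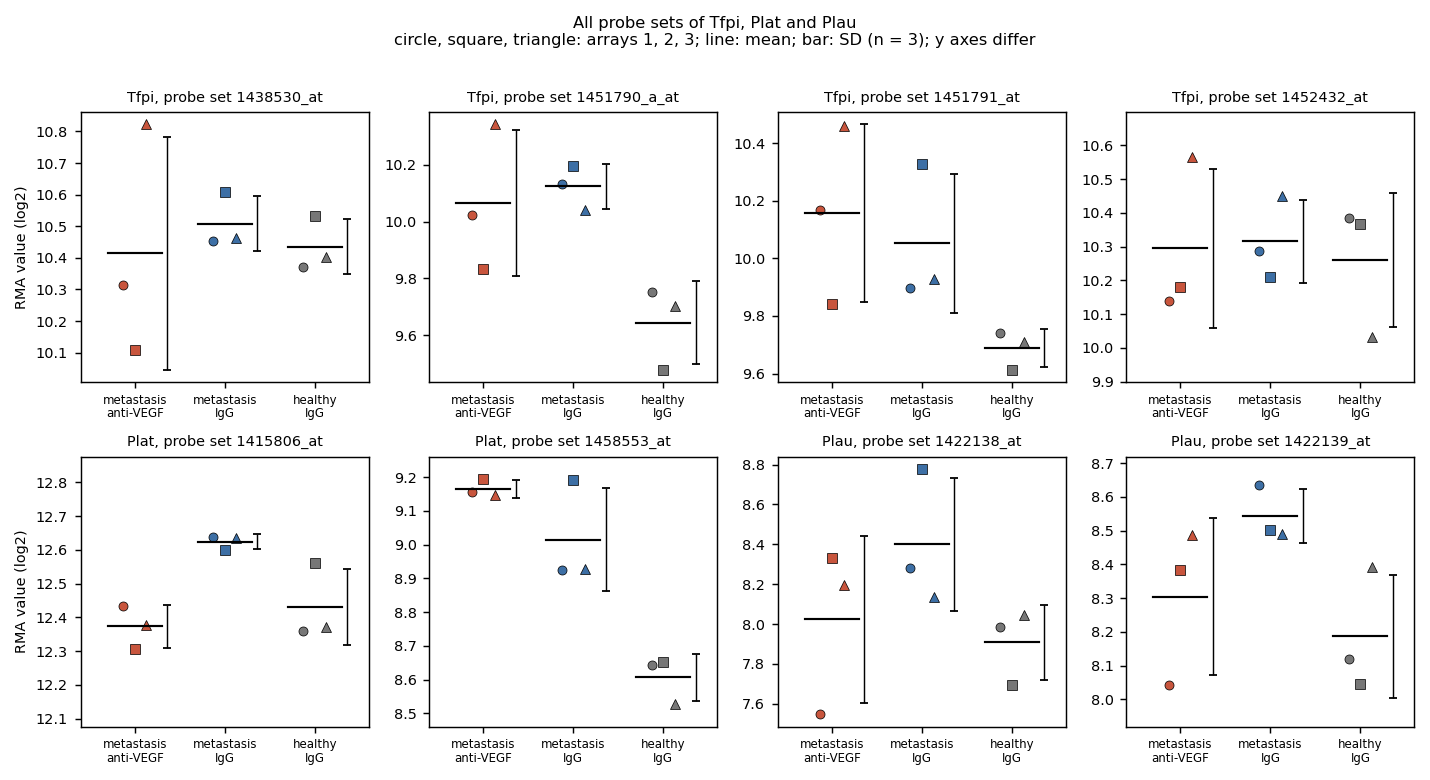
RMA values (log2, y axis, with its own range in each panel) of all probe sets of Tfpi, Plat and Plau in each array, groups as labelled, with means and SD (n = 3 per group). Tfpi probe sets 1451790_a_at and 1451791_at and Plat probe set 1458553_at separate all metastatic from all healthy arrays, while the remaining Tfpi probe sets do not.

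On the clotting side, F3 was measured at a low level, with a mean above that of 21.4% of all probe sets, and with large spread. Its log2 level was 6.65, 6.73 and 7.48 under anti-VEGF, 7.57, 7.36 and 7.46 in metastatic IgG, and 6.60, 7.44 and 7.91 in healthy arrays. The healthy arrays alone spanned the range of both metastatic groups. The difference of metastatic IgG from healthy ECs was 0.14 log2 units with an interval of -0.50 to 0.78, so a shift in either direction was not detectable at this spread.

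F8 encodes factor VIII, the cofactor that speeds the activation of factor X, and ECs are its main source in mice. Its log2 level was 9.62, 10.15 and 9.99 under anti-VEGF, 9.29, 9.60 and 8.82 in metastatic IgG, and 9.25, 9.14 and 9.08 in healthy arrays. All anti-VEGF arrays exceeded every other array, anti-VEGF array 1 only just. Metastatic IgG arrays spread to both sides of the healthy ones, with a difference of 0.08 ± 0.18 log2 units (adjusted p = 0.835).

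Vwf encodes von Willebrand factor, which tethers platelets and carries factor VIII. Its log2 level was 12.91, 12.98 and 12.90 under anti-VEGF, 12.82, 12.77 and 12.80 in metastatic IgG, and 12.95, 12.86 and 12.93 in healthy arrays. The metastatic IgG arrays were the lowest 3 of all 9, and anti-VEGF and healthy arrays overlapped. The difference of metastatic IgG from healthy ECs was -0.11 ± 0.07 log2 units and did not pass (adjusted p = 0.411). The mean log2 level over 6 platelet markers was also lowest in the metastatic IgG arrays, while anti-VEGF and healthy arrays overlapped. It was 8.54 to 8.63 under anti-VEGF, 8.26 to 8.40 in metastatic IgG and 8.48 to 8.64 in healthy arrays. Among these markers Gp5 fell by 0.56 and Ppbp by 0.54 log2 units in metastatic IgG against healthy ECs. The others did not pass, with -0.38 for Pf4, -0.23 for Gp9, 0.08 for Treml1 and 0.27 for Itga2b, whose metastatic IgG arrays lay above the healthy ones. Their part in the Vwf values was not tested.

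On the fibrinolytic side, Plat encodes tissue-type plasminogen activator, which ECs store and release. In probe set 1415806_at its log2 level was 12.44, 12.31 and 12.38 under anti-VEGF, 12.64, 12.60 and 12.64 in metastatic IgG, and 12.36, 12.56 and 12.37 in healthy arrays. Metastatic IgG arrays were the highest 3, close to healthy array 2. The difference from healthy ECs was 0.19 ± 0.08 log2 units (adjusted p = 0.214). In probe set 1458553_at the log2 level was 9.16, 9.19 and 9.15 under anti-VEGF, 8.92, 9.19 and 8.93 in metastatic IgG, and 8.64, 8.65 and 8.53 in healthy arrays. That probe set rose by 0.41 ± 0.10 log2 units in metastatic IgG against healthy ECs (adjusted p = 0.0465 over all probe sets).

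Plau encodes urokinase, the activator used in tissue and by migrating cells. Its log2 level in the probe set of higher mean was 8.04, 8.38 and 8.49 under anti-VEGF, 8.63, 8.50 and 8.49 in metastatic IgG, and 8.12, 8.05 and 8.39 in healthy arrays. Metastatic IgG arrays exceeded all others, by little over anti-VEGF array 3. The difference from healthy ECs was 0.36 ± 0.11 log2 units and did not pass (adjusted p = 0.0812). Its second probe set gave 0.49 ± 0.17, again without overlap and without passing (adjusted p = 0.133). Plaur, the urokinase receptor, showed the smallest difference of the fibrinolytic members, with log2 levels of 11.71 to 11.84 under anti-VEGF, 11.74 to 11.90 in metastatic IgG and 11.72 to 11.85 in healthy arrays and an interval of -0.13 to 0.25 for metastatic IgG minus healthy.

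Over single probe sets, then, 3 of 14 member probe sets were called higher in metastatic IgG against healthy ECs, 1 each of Procr, Tfpi and Plat (21.4%, against 4.43% of all probe sets called higher). None was called lower, against 2.98% of all probe sets. Without any 1 of the 6 arrays, 0 or 1 of the 3 stayed called. Procr and Plat 1458553_at were lost each time, with adjusted p of up to 0.124 and 0.150, and Tfpi 1451790_a_at was lost without metastatic IgG array 1 (0.0773) or 2 (0.0723) or healthy array 2 (0.0787) or 3 (0.0630). Probe sets of 1 gene share their target and are not separate evidence.

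Metastatic lungs treated with anti-VEGF were next set against those given IgG, to see whether blocking VEGF moves these genes within metastasis. No member passed, and limma called 0 of 18193 genes in either direction (0% higher and 0% lower), with 1462 genes at an unadjusted p under 0.05. Arrays did not overlap in 2 higher members, F8 and Vwf (22.2%, against 6.20% of all genes), nor in 2 lower members, Plat and Plau (22.2%, against 6.91%). F8 differed by 0.68 ± 0.20 log2 units, a fold of 1.60 with an interval of 0.22 to 1.14 log2 units (adjusted p = 0.459). F3 differed by -0.51 ± 0.20 log2 units with overlapping arrays (adjusted p = 0.586).

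Plat gave opposite signs by probe set under anti-VEGF against IgG. Probe set 1415806_at differed by -0.25 ± 0.08 log2 units in the gene fit (adjusted p = 0.480), and 1458553_at by 0.15 ± 0.10 (adjusted p = 0.797 over all probe sets). Plau differed by -0.24 ± 0.12 (adjusted p = 0.681) and Vwf by 0.13 ± 0.08 (adjusted p = 0.742). For Procr the difference was 0.15 with an interval of -0.10 to 0.40, and for Thbd 0.06 with an interval of -0.12 to 0.25.

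**Figure D3:**
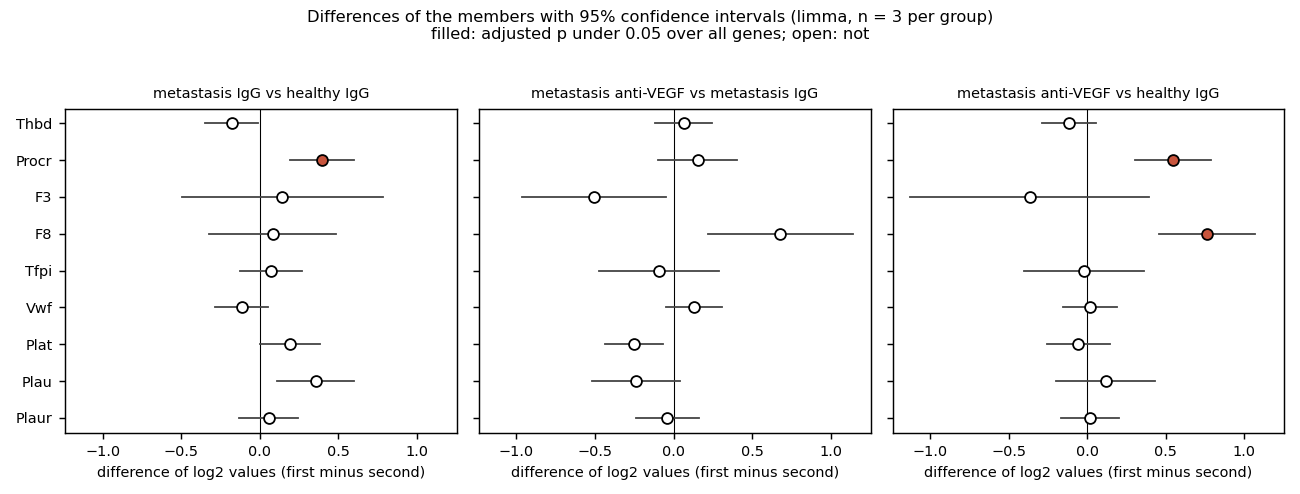
Differences of log2 values (x axis, first group minus second) of the 9 members in 3 comparisons, with 95% confidence intervals from limma (n = 3 per group). Filled points passed an adjusted p under 0.05 over all genes, which holds for Procr in metastatic IgG against healthy, for Procr and F8 in anti-VEGF against healthy, and for none in anti-VEGF against IgG.

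The comparison of anti-VEGF treated metastatic ECs with healthy ECs shares its healthy arrays with the first comparison and its anti-VEGF arrays with the second. Procr rose by 0.55 ± 0.11 log2 units, a fold of 1.46 (adjusted p = 0.0202), and F8 rose by 0.76 ± 0.13, a fold of 1.70 (adjusted p = 0.0140). They were 2 of 9 members (22.2%, against 4.15% of all genes called higher), and none was called lower, against 2.29% of all genes. Without healthy array 1 or 3 the adjusted p of Procr was 0.0675 or 0.0726. Without anti-VEGF array 3, healthy array 2 or healthy array 3 that of F8 was 0.0551, 0.0547 or 0.0539. Arrays of Procr and F8 did not overlap (22.2%, against 13.8% of all genes higher), nor did those of Thbd, at -0.12 ± 0.08 log2 units (1 of 9 members or 11.1%, against 13.1% of all genes lower, adjusted p = 0.441).

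Plat probe set 1458553_at rose by 0.56 ± 0.08 log2 units under anti-VEGF against healthy ECs (adjusted p = 0.00676), while 1415806_at differed by -0.06 ± 0.09. It stayed called without each of the 6 arrays in turn (adjusted p of 0.0184 to 0.0325). With Procr and F8 it made 3 of 14 member probe sets called higher (21.4%, against 3.32% of all probe sets). Tfpi probe sets 1451790_a_at and 1451791_at differed by 0.42 ± 0.14 and 0.47 ± 0.15 without overlap and without passing (adjusted p = 0.131 and 0.110).

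The order of the 3 group means, in the probe set that stood for each gene, differed from gene to gene. Procr was highest under anti-VEGF and lowest in healthy ECs, and only the step between metastatic IgG and healthy ECs passed. F8 had the same order, and neither single step passed, although its ends did. Thbd was highest in healthy and lowest in metastatic IgG ECs, and Vwf was highest under anti-VEGF and lowest in metastatic IgG. Plat, Plau, F3, Tfpi and Plaur were highest in metastatic IgG. For Thbd, Vwf and these genes, no step between neighbours passed. Plat probe set 1458553_at and Tfpi probe set 1451791_at were instead highest under anti-VEGF. In that Plat probe set the step between metastatic IgG and healthy ECs passed (limma's adjusted p = 0.0465 over all probe sets). Over the 9 arrays, the genes with levels most like Procr were Dock2 (Pearson r = 0.987), Nop53 (r = 0.977) and Tmem88 (r = 0.962), as a description of arrays that share 3 groups.

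Around the members, 3 of 3 measured receptors through which cells sense thrombin and related proteases were called higher in metastatic IgG against healthy ECs, beside the 5.55% of all genes given above, and the fourth of the list was not analysed here. F2r encodes the main thrombin receptor of endothelium, and its log2 level was 12.44, 12.37 and 12.55 under anti-VEGF, 12.47, 12.56 and 12.47 in metastatic IgG, and 12.09, 12.19 and 12.14 in healthy arrays. Its difference of metastatic IgG from healthy was 0.36 ± 0.08 log2 units (adjusted p = 0.0232), and that of its second probe set 0.78 ± 0.13. F2rl3, another thrombin receptor, had a log2 level of 7.48, 7.79 and 7.94 under anti-VEGF, 7.68, 8.14 and 7.72 in metastatic IgG, and 6.99, 7.24 and 7.15 in healthy arrays, a rise of 0.72 ± 0.13 (adjusted p = 0.0147).

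F2rl2, which in mice helps thrombin engage F2rl3 on platelets, rose by 1.10 ± 0.21 log2 units (adjusted p = 0.0154). It was dim, at 6.94, 7.91 and 7.54 under anti-VEGF, 7.57, 8.18 and 7.28 in metastatic IgG, and 6.71, 6.41 and 6.62 in healthy arrays. Its mean lay above that of 19.0% of all genes, against 26.3% for F2rl3 and 96.3% for F2r. The second probe set of F2rl2 gave 0.26 ± 0.10 and did not pass (adjusted p = 0.171). Of these receptor calls, F2rl2 was lost only without healthy array 2 (adjusted p = 0.0639) and F2rl3 only without healthy array 1 (0.0505), whereas F2r was kept only without metastatic IgG array 3 (0.0467). Under anti-VEGF against IgG none of the 3 receptors passed, with differences of -0.05 for F2r, -0.11 for F2rl3 and -0.22 for F2rl2. Against healthy ECs the anti-VEGF difference of F2rl3 was 0.61 ± 0.13 and passed (adjusted p = 0.0294). That call was kept without 1 of the 6 arrays, with adjusted p up to 0.102 without the others. The gene fit gave 0.31 ± 0.08 for F2r (adjusted p = 0.0625) and 0.88 ± 0.22 for F2rl2 (adjusted p = 0.0517). The second F2r probe set rose by 0.67 ± 0.13 and passed (adjusted p = 0.0230 over all probe sets). That of F2rl2 gave 0.16 ± 0.14 and did not pass (adjusted p = 0.608). F2rl3 and F2rl2 are also known from platelets, whose markers went both ways as given beside Vwf, and the part of platelets in these values was not tested.

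**Figure D4:**
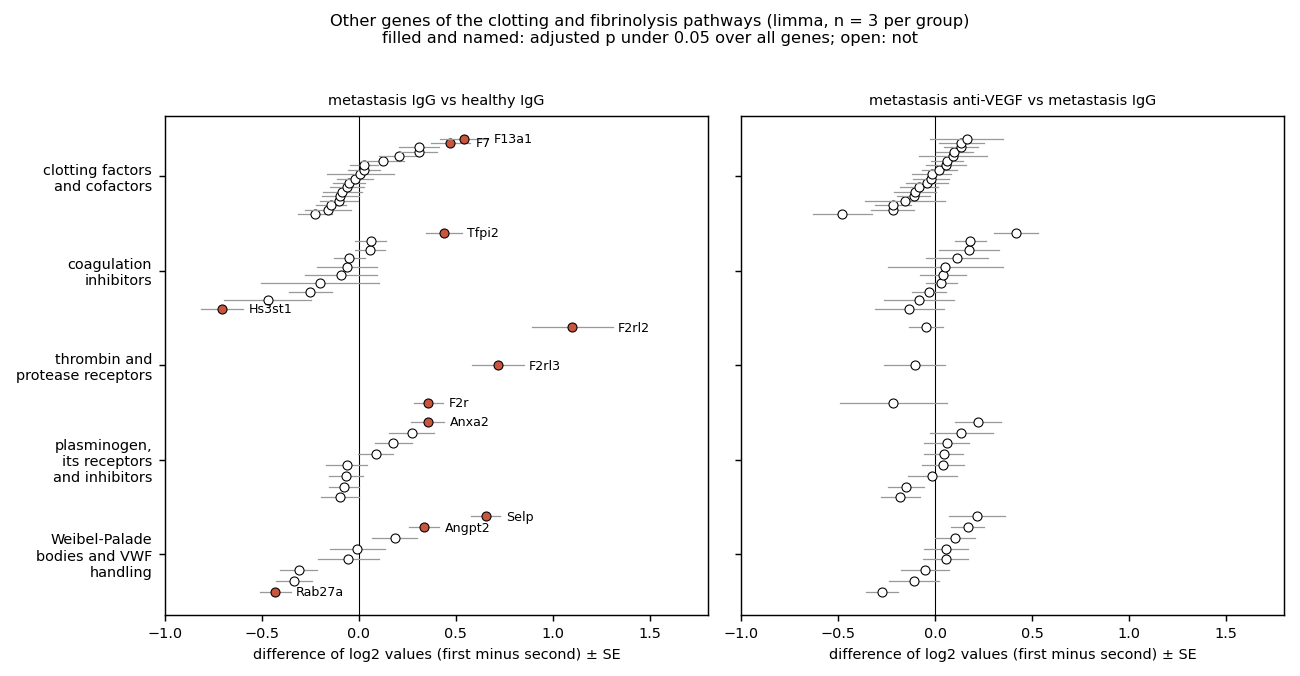
Differences of log2 values (x axis, first group minus second) with SE for 47 other measured genes of clotting and fibrinolysis, grouped by role, in metastatic IgG against healthy and in anti-VEGF against IgG (n = 3 per group). Filled and named points passed an adjusted p under 0.05 over all genes, 11 in the first comparison and 0 in the second. Of all genes, 5.55% were called higher and 3.46% lower in the first, and 0% either way in the second.

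Of 10 other inhibitors of coagulation, 1 rose and 1 fell in metastatic IgG against healthy ECs, with a median difference of -0.08 log2 units. Over all genes, 5.55% were called higher and 3.46% lower. Hs3st1 encodes the enzyme that makes the antithrombin-binding form of heparan sulfate. Its log2 level was 10.49, 10.46 and 10.66 under anti-VEGF, 9.97, 10.04 and 10.33 in metastatic IgG, and 10.87, 10.72 and 10.88 in healthy arrays, with no overlap between any pair of groups. It fell by 0.70 ± 0.11 log2 units in metastatic IgG against healthy ECs (adjusted p = 0.00650), a call that was kept without each of the 6 arrays in turn (0.00353 to 0.0293). Under anti-VEGF it differed from IgG by 0.42 ± 0.12 without passing (adjusted p = 0.437). Tfpi2, a protease inhibitor related to Tfpi, rose by 0.44 ± 0.09 (adjusted p = 0.0221, and up to 0.0771 without single arrays).

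Of 18 clotting factors and cofactors, 2 rose and none fell in the gene fit of metastatic IgG against healthy ECs, with a median of -0.01 log2 units. These counts stand beside 5.55% of all genes called higher and 3.46% called lower. A second probe set of the listed gene Ggcx fell by 0.61 ± 0.11 log2 units (adjusted p = 0.0157 over all probe sets). The Ggcx probe set of the gene fit gave -0.22 ± 0.09 and did not pass (adjusted p = 0.161). F7, the partner of tissue factor, rose by 0.47 ± 0.10 (adjusted p = 0.0256), and F13a1, the subunit that cross-links fibrin and is also made by macrophages and platelets, rose by 0.54 ± 0.12 (adjusted p = 0.0312). Without single arrays their adjusted p ran to 0.0856 and 0.102. Both were dim, with a mean level above that of 32.0% of all genes for F7 and 30.4% for F13a1. The macrophage markers given above were higher in the same arrays, and their part was not tested. Under anti-VEGF against IgG none passed, and F12, the contact factor, had the smallest p with a difference of -0.48 ± 0.15 log2 units (adjusted p = 0.480).

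Of 8 measured genes of plasminogen, its receptors and its inhibitors, Anxa2, which assembles plasminogen and its tissue-type activator on ECs, was the only one to pass in metastatic IgG against healthy ECs, rising by 0.36 ± 0.08 log2 units (adjusted p = 0.0364, and up to 0.116 without single arrays). Its further probe sets gave 0.01 ± 0.11 and 0.40 ± 0.15 without passing. The share of all genes called higher was 5.55% in this comparison.

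Weibel-Palade bodies are the granules in which ECs store von Willebrand factor. Of 8 measured genes of these granules or of von Willebrand factor handling, 2 rose and 1 fell in metastatic IgG against healthy ECs. The shares over all genes were 5.55% higher and 3.46% lower. Selp, the adhesion molecule of these granules, had a log2 level of 11.54, 11.53 and 11.68 under anti-VEGF, 11.46, 11.35 and 11.44 in metastatic IgG, and 10.80, 10.75 and 10.74 in healthy arrays. It rose by 0.65 ± 0.08 log2 units in metastatic IgG (adjusted p = 0.00162) and by 0.82 ± 0.08 under anti-VEGF against healthy ECs (adjusted p = 0.000935), and both calls were kept without each array in turn. Angpt2, a ligand stored in the same granules, rose by 0.34 ± 0.08 in metastatic IgG (adjusted p = 0.0332, and up to 0.119 without single arrays), and under anti-VEGF it lay below every IgG array at a difference of -0.27 ± 0.08 that did not pass (adjusted p = 0.463). Its second probe set passed in neither comparison, with 0.28 ± 0.08 (adjusted p = 0.0763 over all probe sets) and -0.12 ± 0.13 (adjusted p = 0.877).

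Rab27a, which governs granule release, fell by 0.43 ± 0.08 log2 units in metastatic IgG against healthy ECs (adjusted p = 0.0130), with -0.41 ± 0.10 in a second probe set that also passed (adjusted p = 0.0401 over all probe sets), and -0.42 ± 0.18 and -0.02 ± 0.10 in those that did not. Vwf, the main cargo, did not pass in any of the comparisons. The 3 venous markers that rose in metastatic IgG against healthy ECs, Ackr1 by 1.50, Nr2f2 by 1.10 and Nrp2 by 0.82 log2 units, out of 6 measured, moved in the same arrays, as did the arterial Hey2 and Bmx, which fell by 0.96 and 0.66. The other venous markers did not pass, with differences of -0.53 for Vcam1, whose arrays did not overlap, -0.26 for Slc6a2 and -0.05 for Ephb4. Of 9 arterial markers, the other 7 did not pass either, with differences from -0.21 for Efnb2 to 0.17 for Dll4. A positive difference was seen in 5 of the 9, and their median was 0.01 log2 units. Of 6 capillary markers of the aerocyte kind, Apln and Emcn rose by 0.59 and 0.43 log2 units and Ednrb fell by 0.44. The other aerocyte markers did not pass, nor did any of 6 general capillary markers. Of 5 lymphatic markers only Pdpn passed, rising by 0.61. Whether the vessel types sampled differed between groups was not tested for any of the genes above.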

How the data were processed

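ECs were sorted from lungs and profiled on Affymetrix Mouse Genome arrays, 3 per group in 3 groups. RMA in Chipster 3.8.0 was used by the authors for normalization, and the deposited log2 values were not altered. The 45101 probe sets were named by the platform annotation. Those without a name, with several genes or for controls were left out, which left 34945 probe sets of 18193 genes. A gene was represented by its probe set of highest mean over all 9 arrays, with no filter on dim genes, and every probe set was also fitted by itself. RMA makes the array distributions alike, so a shift shared by all genes cannot be seen.

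The lmFit and eBayes functions of limma 3.58.1 (R 4.3.3) were run for each pair of groups on 6 arrays, and p-values were adjusted by Benjamini-Hochberg over all genes or all probe sets. A feature was called at an adjusted p under 0.05. Errors of differences are SE and intervals are 95% confidence intervals. The fit was tested on simulated data.

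The 9 members and the gene lists were chosen with earlier results of these data known. The lists held 164 entries, of which 153 were measured. The text names all members and up to 4 called genes of each pathway list with the largest differences. Where none was called, the 2 of smallest p were eligible. It also names up to 3 genes of each cell type list described, and the 3 genes most correlated with a called member. Not every cell type list is described. Some other list genes are also named where their results differ from these. Promoters came from RefSeq (GRCm38.p6) and were given only for members called in metastatic IgG against healthy ECs. 5 of the 9 members had an entry. Same-numbered arrays did not deviate together (r of -0.0757 to 0.0138), so numbers did not pair the arrays. Results were recomputed with each array left out in turn, with a block for replicate number, in 1 fit over 9 arrays, after removal of dim genes or of shared-suffix probe sets, with probe sets averaged per gene, after centring or renewed quantile normalization, and with trend and robust settings. Python 3.11.15, pandas 2.3.3 and matplotlib 3.10.9 served for figures.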

Additional observations from a re-analysis of the deposited data

How the results depend on the processing

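With 3 arrays a group, the calls of single members were fragile, while most differences kept their sign. In metastatic IgG against healthy ECs, 1 member was called. With the replicate number as a block 0 were (Procr at an adjusted p of 0.0712), with probe sets averaged per gene 2 (Plat joined, adjusted p = 0.0428), with probe sets of a shared suffix left out 0 (this removes the Procr and Plaur probe sets), and with trend and robust settings 2 (Thbd joined). The replicate block also left 0 of the 3 member probe sets called, and all genes called numbered 1176 against 1640, and 841 against 1172 for anti-VEGF against healthy. The arrays share only a number. In anti-VEGF against healthy ECs, 2 members were called and 1 without shared suffixes, and all genes called numbered 1848 with trend and robust settings. Under the mean of probe sets Tfpi and Plat turned from -0.02 and -0.06 to 0.23 and 0.25 log2 units, since their probe sets differ.

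Leaving out each array in turn gave 0 to 1 members and 0 to 1 member probe sets called in metastatic IgG against healthy, 0 to 2 members and 1 to 3 probe sets in anti-VEGF against healthy, and 869 to 1478 and 645 to 1139 of all genes. In metastatic IgG against healthy, F8 ran from -0.10 to 0.29 and F3 from -0.22 to 0.44 log2 units. In anti-VEGF against IgG, Tfpi ran from -0.30 to 0.0592 and Plaur from -0.0860 to 0.0027. In anti-VEGF against healthy, Tfpi ran from -0.23 to 0.13, Plaur from -0.0078 to 0.0603, Vwf from -0.0113 to 0.0333 and Plat from -0.0939 to 0.0066. The other differences of members kept their sign. The pathway genes were also refitted in these ways, a check added after the data had been seen. In metastatic IgG against healthy, the calls of Selp and Hs3st1 were kept without each array in turn, those of the other 9 were not, and the replicate block took those of F2r, F7, F13a1, Anxa2 and Angpt2 to adjusted p of 0.0543 to 0.0888. No member was called in anti-VEGF against IgG under any alternative.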
